A study of Taeniopygia guttata with 2 samples.

Results

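The 7 genes described here encode receptors through which adenosine and serotonin act on the cells of Area X, the striatal song nucleus of the zebra finch. They are the adenosine receptor genes *ADORA1* and *ADORA2A* and the serotonin receptor genes *HTR1B*, *HTR2A*, *HTR2C*, *HTR4* and *HTR7*, chosen by name and found as 7 of the 17430 gene columns of a table of unique molecular identifiers (UMIs) per nucleus. Nuclei came from adult males injected with an adeno-associated virus carrying a scrambled hairpin (CS-shScr) or hairpins against FoxP2 (CS-shFoxP2), a transcription factor of vocal learning. Both viruses hold the hairpin in a switch that Cre turns off, so the groups share virus, surgery and switch. Each condition gave 1 library pooled from punches of 2 birds, which were taken before lights on. The labels give an age of 160 to 185 days post hatch in both groups, and the methods of the study give a later age at sacrifice. The labels name striatal projection neurons as the cell type, although the nuclei were not sorted and also came from other neurons, glia, endothelium and red blood cells.

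All 7 receptors signal through G proteins. In the mammalian striatum the adenosine 2A receptor (*ADORA2A*) raises cAMP and marks the medium spiny neurons (MSNs) of the indirect pathway, where it opposes the dopamine D2 receptor, while the A1 receptor (*ADORA1*) lowers cAMP and reduces transmitter release. Of the serotonin receptors, 5-HT4 (*HTR4*) and 5-HT7 (*HTR7*) raise cAMP, 5-HT1B (*HTR1B*) lowers it on axon terminals, and 5-HT2A (*HTR2A*) and 5-HT2C (*HTR2C*) act through phospholipase C and calcium.

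Below, paired values give the shScr library and then the library labelled shFoxP2. The libraries held 14289 and 12956 nuclei with 39179294 and 42662731 UMIs, at medians of 2300 and 2871 UMIs per nucleus, and 47 barcodes occurred in both. *FOXP2*, the target of the hairpins, stood at 4.75 and 5.85 UMIs per 10000 in MSNs, so it was higher where its knockdown is labelled, and directions given for the library labelled shFoxP2 rest on that label. These are counts of nuclear RNA over exons and introns. The study measured its knockdown as FoxP2 protein, which is a different measure. Nuclei were grouped by the 23 clusters of the authors under the cell type names of the study. MSNs are clusters 1 to 5 (9657 and 8393 nuclei). Here 2 and 4 are called direct-like, 1 and 3 indirect-like, and 5, grouped with the latter, mixed. *DRD2* stood at 3.74 and 4.04 in cluster 1, 2.91 and 3.43 in 3, 2.11 and 2.30 in 5, 0.196 and 0.169 in 2 and 0.205 and 0.213 in 4. *FOXP2* stood at 0.441 and 0.508 in cluster 1, 2.31 and 2.49 in 3, 4.57 and 5.56 in 5, 8.04 and 10.3 in 2 and 12.8 and 12.7 in 4. The study named putative pathways only in a separate clustering of the shScr nuclei, which has its own numbers. There clusters 1 and 5 were direct-like and 2, 3 and 4 indirect-like. A level is the number of UMIs of a gene per 10000 UMIs summed over a group of nuclei. Ranges in brackets are exact 95% intervals for counting error alone. Since each condition has 1 library, the libraries could not be tested against each other, and as the clusters were drawn from all genes, differences between clusters are descriptions. Levels are compared between groups of nuclei and never between genes.

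Red blood cells (cluster 11, 328 and 373 nuclei, median 659 and 630 UMIs) served as a reference. They were marked by the haemoglobin gene *HBAA* (522 and 451 UMIs per 10000), but neuronal transcripts were plain in them: *PPP1R1B*, an MSN gene, was highest there of all clusters (4.20 and 5.02), and *TAC1* stood at 29.6 and 13.3, beside 26.7 and 13.6 in MSN cluster 2. A receptor level at or below theirs is therefore read only as not above this reference. The reference does not give the background of neurons, as some neuron clusters stood far lower. *HTR2A*, for example, was at 0.520 and 0.422 in interneuron cluster 14 and at 3.59 and 2.48 in red blood cells. The part of free RNA in the other clusters was not tested.

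**Figure D1:**
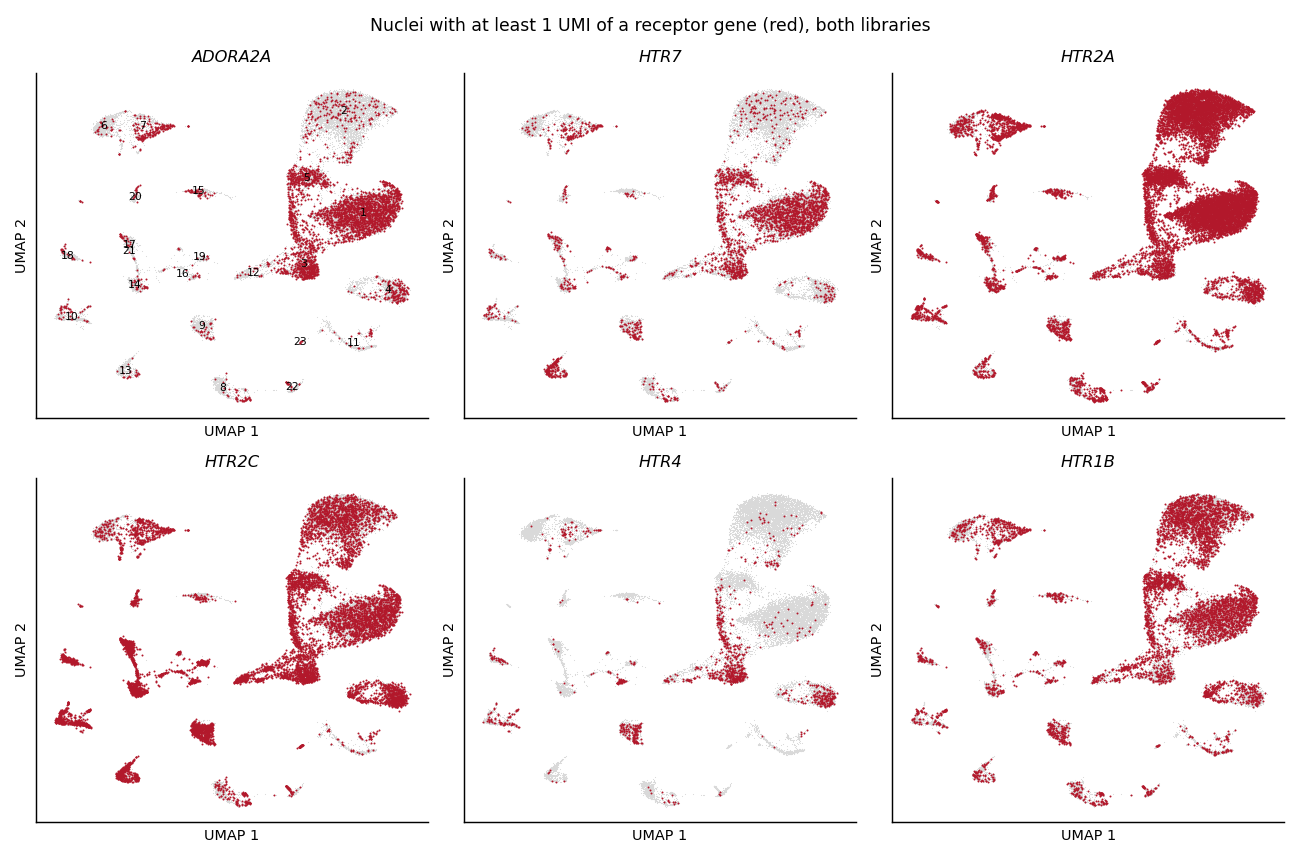
Nuclei of both libraries on the authors' UMAP (axes without unit), with nuclei that hold at least 1 UMI of the named gene in red and all others in grey; numbers in the *ADORA2A* panel mark the 23 clusters. *ADORA2A* and *HTR7* are dense over clusters 1, 3 and 5, *HTR4* over 3 and 4, and *HTR2C* over the GLUT+ neurons 9 and 10 and several interneuron clusters.

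*ADORA2A* was highest in indirect-like MSNs. Cluster 3 had 1.51 (1.36 to 1.66) and 1.44 (1.32 to 1.56) UMIs per 10000 and cluster 1 had 1.28 (1.21 to 1.36) and 1.11 (1.04 to 1.18). Direct-like cluster 2 had 0.127 and 0.125, direct-like cluster 4 had 0.453 and 0.414, and mixed cluster 5 lay between with 0.767 and 0.683. Over both libraries, 23.8% of cluster 5 was among the nuclei with the highest doublet scores, against 4.51% of cluster 1 and 4.03% of cluster 2. Both direct-like clusters were below clusters 1, 3 and 5 in each library. The share of all genes with such a separation was not counted. Direct-like over indirect-like MSNs (0.190 and 0.209 against 1.21 and 1.09) gave log2 ratios of -2.67 (-2.89 to -2.46) and -2.38 (-2.58 to -2.19), a level 6.37 and 5.21 times higher in indirect-like nuclei. The gap was wider between the main clusters (2 over 1, -3.34 and -3.15) than between the minor ones (4 over 3, -1.73 and -1.80), as cluster 4 held 3.58 and 3.31 times the level of cluster 2. Indirect-like MSNs carried 75.4% and 75.2% of all *ADORA2A* UMIs and 37.4% and 37.7% of the UMIs of all genes.

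Red blood cells had 16 and 14 *ADORA2A* UMIs, a level of 0.487 and 0.366. Indirect-like MSNs exceeded them by log2 ratios of 1.31 (0.61 to 2.12) and 1.57 (0.82 to 2.45). Direct-like MSNs, pooled, did not (-1.36, -2.09 to -0.52, and -0.81, -1.58 to 0.08). The 2 direct-like clusters differed, with cluster 4 over cluster 2 at log2 ratios of 1.839 (1.423 to 2.252) and 1.725 (1.345 to 2.109). With nuclei thinned to 1000 UMIs, 12.5% (11.4 to 13.6) and 10.6% (9.47 to 11.8) of cluster 1 had an *ADORA2A* UMI (9 and 1 nuclei left out), against 1.59% and 1.06% of cluster 2 (7 and 3 left out) and 3.66% (0.761 to 10.3) and 4.41% (0.919 to 12.4) of red blood cells (246 and 305 left out). Without thinning, the shares were 25.9% and 26.8% in cluster 1 (median 2219 and 2766 UMIs), 2.85% and 3.62% in cluster 2 (median 2137 and 2750) and 4.57% and 3.22% in red blood cells (median 659 and 630).

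Other cells held little *ADORA2A*. GLUT+ neurons (0.158 and 0.129), interneurons (0.160 and 0.126) and pallidal-like neurons (0.326 and 0.207) were below the red blood cells, and astrocyte cluster 7 (0.524 and 0.491) and oligodendrocytes (0.182 and 0.382, from 18 and 36 UMIs) were near or below them. Endothelial cells stood higher, at 1.04 and 0.526 from 31 and 23 UMIs, and their log2 ratio over red blood cells was above 0 in the shScr library and included 0 in the other (1.10, 0.18 to 2.07, and 0.52, -0.50 to 1.60).

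*ADORA1* was sparse (154 and 117 UMIs in all nuclei) and of the neuron classes was highest in GLUT+ neurons. Their level was 0.189 (0.144 to 0.243) and 0.144 (0.102 to 0.197), from 60 and 39 UMIs, against 0.0182 and 0.00907 in MSNs, from 46 and 25 UMIs. GLUT+ neurons thus exceeded MSNs by log2 ratios of 3.38 (2.80 to 3.96) and 3.99 (3.23 to 4.77), and they held 39% and 33.3% of the *ADORA1* UMIs against 8.10% and 6.35% of all UMIs. Red blood cells had 3 and 1 UMIs, and the intervals of GLUT+ neurons over them included 0 (1.05, -0.57 to 3.37, and 2.46, -0.10 to 7.80). With nuclei thinned to 1000 UMIs the GLUT+ level in the library labelled shFoxP2 was 0.291 in place of 0.144. Interneuron cluster 18 had 6 and 21 UMIs, a level of 0.125 (0.0458 to 0.272) and 0.304 (0.188 to 0.464). Pallidal-like neurons had 0 UMIs in 384 and 262 nuclei, which allows a share of nuclei with an *ADORA1* UMI of up to 0.781% and 1.15%. At this depth such limits bear on detection and not on the share of nuclei that express a gene.

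*HTR7* divided the MSNs as *ADORA2A* did. Indirect-like cluster 1 had 0.909 (0.847 to 0.975) and 0.807 (0.747 to 0.870) UMIs per 10000, indirect-like cluster 3 had 0.816 and 0.688 and mixed cluster 5 had 0.518 and 0.448. Direct-like cluster 2 had 0.0856 and 0.0896 and direct-like cluster 4 had 0.0975 and 0.135. Clusters 2 and 4 were below clusters 1, 3 and 5 in each library, though 23.8% of cluster 5 had high doublet scores. How many of all genes separate these clusters so was not counted. Direct-like over indirect-like MSNs gave -3.19 (-3.52 to -2.89) and -2.76 (-3.04 to -2.48), so the level was 9.15 and 6.76 times higher in indirect-like nuclei. Unlike *ADORA2A*, *HTR7* was low in the minor direct-like cluster too, with cluster 4 over cluster 3 at -3.07 and -2.35. Red blood cells had 0.487 and 0.392 (16 and 15 UMIs). Indirect-like MSNs exceeded them (0.73, 0.02 to 1.54, and 0.83, 0.10 to 1.67) and direct-like MSNs were below them (-2.47 and -1.93). After thinning, 8.21% (7.34 to 9.16) and 7.48% (6.54 to 8.50) of cluster 1 had a UMI, beside 0.863% and 1.02% of cluster 2 and 2.44% (0.297 to 8.53) and 2.94% (0.358 to 10.2) of red blood cells. Unthinned shares were 18% and 19.4% in cluster 1, 1.91% and 2.56% in cluster 2 and 3.66% and 3.49% in red blood cells.

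Outside the MSNs, interneuron cluster 13, which carries *PVALB*, was the only cluster with more *HTR7* than red blood cells in both libraries. Its level was 0.999 (0.804 to 1.23) and 0.774 (0.644 to 0.923), and its log2 ratio over indirect-like MSNs included 0 (0.31, -0.01 to 0.62, and 0.16, -0.12 to 0.42). It exceeded the red blood cells by 1.04 (0.26 to 1.90) and 0.98 (0.20 to 1.86). Cluster 14, the other *PVALB* cluster, had 0.0520 and 0.111. *PVALB* itself stood at 3.87 and 2.83 in cluster 13, 4.63 and 3.26 in cluster 14 and 4.44 and 1.75 in red blood cells. In the shScr library it was thus not above the reference in cluster 13. Thinned shares of cluster 13 were 4.95% (2.29 to 9.18) and 8.22% (5.39 to 11.9) (0 and 1 nuclei left out), which overlapped those of red blood cells, and 35.2% and 28.9% were positive without thinning (median 4788 and 4986 UMIs).

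**Figure D2:**
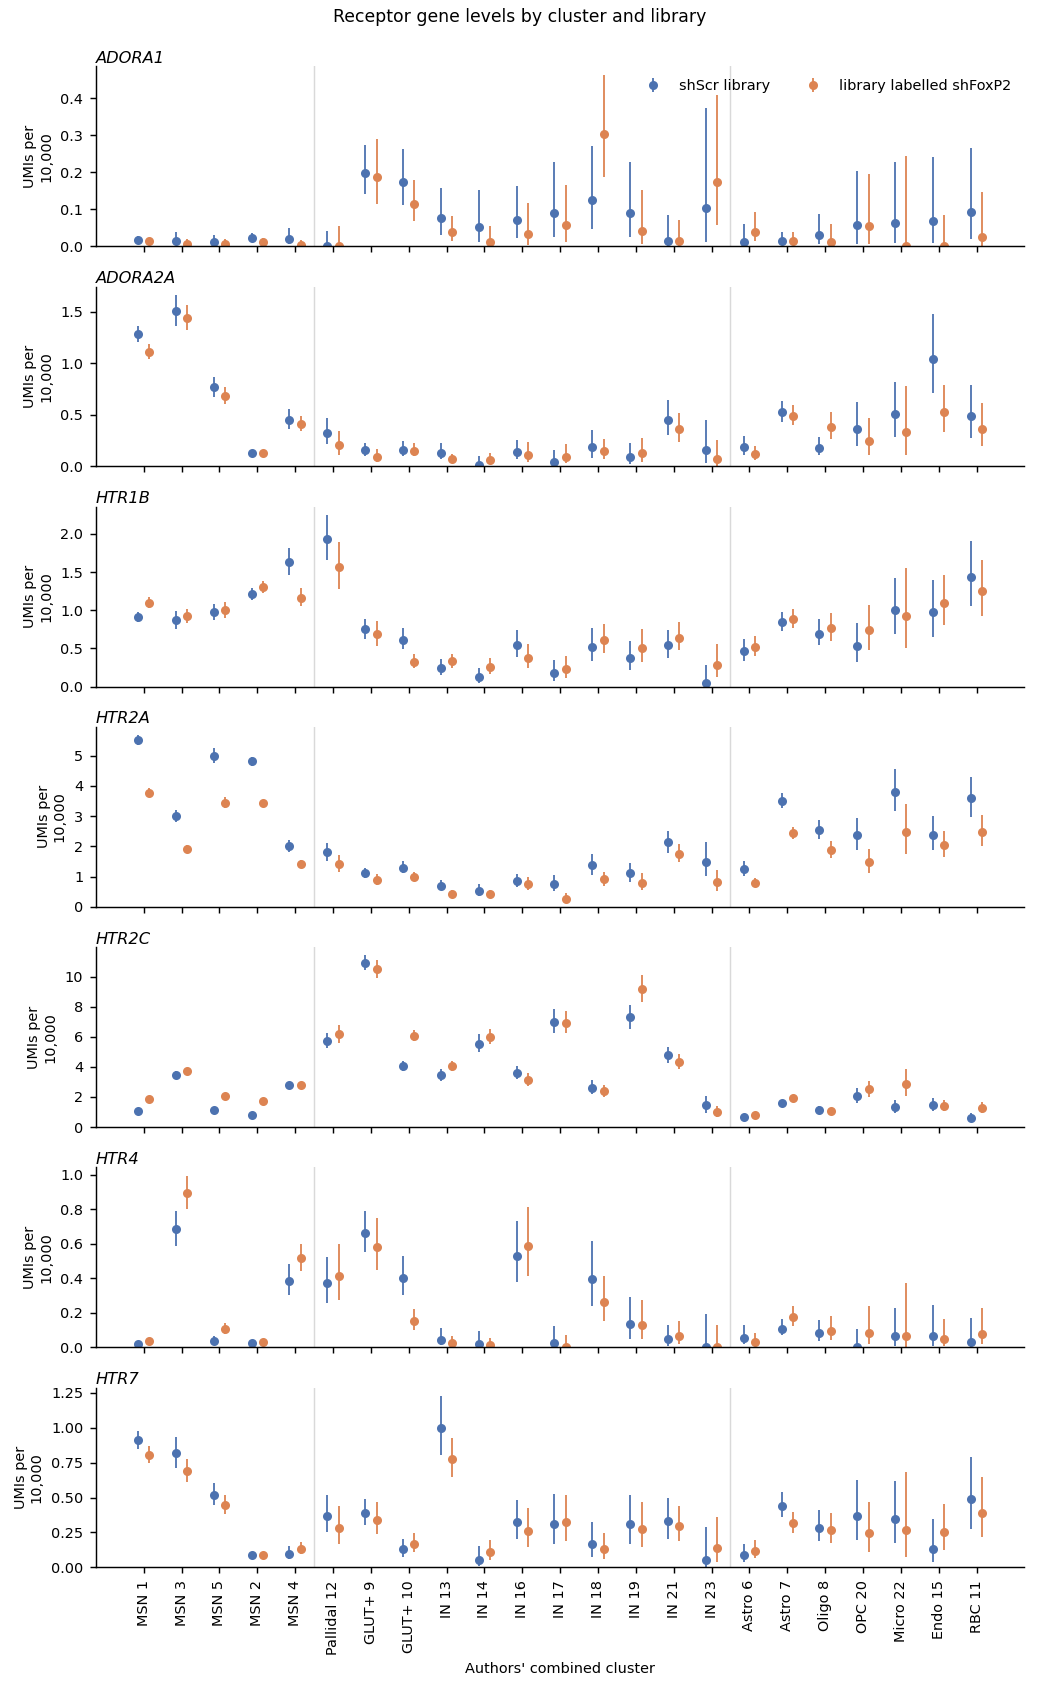
Level of each gene (UMIs per 10000 UMIs, linear axis from 0, scales differ between panels) in the 23 clusters; blue points are the shScr library, orange points the library labelled shFoxP2, and bars exact 95% Poisson intervals of counting error. *ADORA2A* and *HTR7* stand high in MSN clusters 1, 3 and 5, *HTR4* in clusters 3 and 4, *HTR2C* in GLUT+ cluster 9 (10.9 and 10.5), and *HTR2A* is lower in the library labelled shFoxP2 in each of the 23 clusters.

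*HTR4* divided the MSNs along another line, with clusters 3 and 4, called minor here, above clusters 1, 2 and 5. Cluster 3 had 0.683 (0.588 to 0.789) and 0.894 (0.802 to 0.993) UMIs per 10000 and cluster 4 had 0.385 (0.305 to 0.480) and 0.516 (0.442 to 0.599). Main cluster 1 had 0.0195 and 0.0343 and main cluster 2 had 0.0223 and 0.0282, from 17 to 29 UMIs each. Mixed cluster 5 had 0.0368 and 0.104, from 12 and 39 UMIs. Clusters 3 and 4 over 1 and 2 gave log2 ratios of 4.73 (4.22 to 5.28) and 4.52 (4.11 to 4.96), or 26.5 and 23 times. Within the minor pair the indirect-like cluster was higher (4 over 3, -0.83, -1.23 to -0.44, and -0.79, -1.07 to -0.53). Red blood cells had 1 and 3 *HTR4* UMIs, and after thinning 0 of 82 and 0 of 68 of them held one, with exact upper bounds of 4.40% and 5.28%. The thinned shares were 6.37% (4.83 to 8.21) and 8.58% (6.96 to 10.4) in cluster 3, 3.82% and 4.65% in cluster 4 and 0.249% and 0.313% in cluster 1. Unthinned they were 17.2% and 25.5% in cluster 3, 8.61% and 12.1% in cluster 4, 0.414% and 0.904% in cluster 1 and 0.305% and 0.536% in red blood cells, and thinning left out 1 and 0 nuclei of cluster 3.

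*HTR4* also reached such levels in other neurons. GLUT+ cluster 9 had 0.662 and 0.583, interneuron cluster 16, marked by *SST*, *NPY* and *NOS1*, had 0.532 and 0.588, and pallidal-like neurons had 0.371 and 0.414. GLUT+ cluster 10 had 0.403 and 0.152 and interneuron cluster 18 had 0.395 and 0.260. These 5 clusters and MSN clusters 3 and 4 filled the upper 7 places of the order in the shScr library, and the seventh place was apart from the next. This did not hold in the other library. There astrocyte cluster 7 (0.176) stood above GLUT+ cluster 10 (0.152), and only MSN cluster 3 was apart from its next neighbour. In cluster 23, marked by *CHAT* of cholinergic neurons (13.5 and 13.5 UMIs per 10000), *HTR4* had 0 UMIs in 32 and 44 nuclei, which allows up to 9.38% and 6.82% of nuclei with a detected *HTR4* UMI, and sets no limit on expression.

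**Figure D3:**
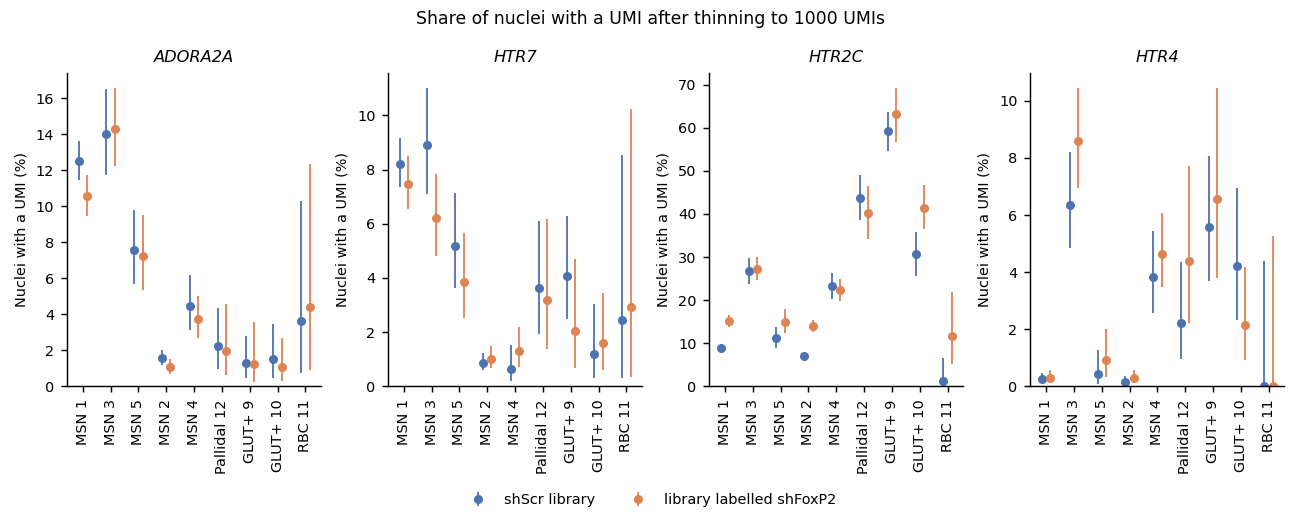
Share of nuclei with at least 1 UMI of *ADORA2A*, *HTR7*, *HTR2C* and *HTR4* (percent, linear axis from 0, scales differ) after thinning to 1000 UMIs, in MSN clusters, pallidal-like neurons 12, GLUT+ neurons 9 and 10 and red blood cells 11; blue is the shScr library, orange the library labelled shFoxP2, and bars exact 95% Clopper-Pearson intervals. *ADORA2A* is at 12.5% in cluster 1 and 1.59% in cluster 2 of the shScr library and *HTR4* at 6.37% in cluster 3 and 0.249% in cluster 1, while the bars of red blood cells are wide.

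*HTR2A* (14296 and 10360 UMIs in all nuclei) was highest in the main MSN clusters of both pathways and in mixed cluster 5. Cluster 1 had 5.51 (5.36 to 5.67) and 3.78 (3.65 to 3.91) UMIs per 10000, cluster 5 had 5.00 and 3.44 and cluster 2 had 4.81 and 3.42. Minor clusters were lower, with 3.00 and 1.90 in cluster 3 and 2.01 and 1.43 in cluster 4, an order opposite to that of *HTR4* (3 and 4 over 1 and 2, -1.01, -1.09 to -0.92, and -1.10, -1.19 to -1.01). The pathways differed little (direct-like over indirect-like, -0.21 and -0.19). Some groups other than neurons were high too. Red blood cells had 3.59 (2.97 to 4.30) and 2.48 (2.01 to 3.04). Microglia had 3.80 and 2.46 and astrocyte cluster 7 had 3.49 and 2.44. Astrocyte cluster 6 was lower, at 1.25 and 0.788, and oligodendrocytes, their precursors and endothelial cells lay between. Over both libraries, 24.9% of cluster 7 and 2.4% of cluster 6 were among the nuclei with the highest doublet scores. MSNs exceeded the red blood cells by only 0.37 (0.11 to 0.65) and 0.31 (0.02 to 0.62), and the intervals of direct-like MSNs over them included 0. Thinned shares were 35.8% and 25.8% of MSNs (36 and 11 left out) and 35.4% (25.1 to 46.7) and 23.5% (14.1 to 35.4) of red blood cells. The share in MSNs was thus not above that of the red blood cells kept. Unthinned they were 64.3% and 56.6% of MSNs and 22.3% and 17.4% of red blood cells. GLUT+ neurons (1.19 and 0.956) and interneurons (1.07 and 0.725) were below the red blood cells.

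*HTR2A* was lower in the library labelled shFoxP2 in all 23 clusters, with 16 intervals below 0. In MSNs the level was 4.65 and 3.08, a log2 ratio of -0.60 (-0.64 to -0.56), and the 5 MSN clusters ranged from -0.66 to -0.49. Red blood cells moved as well (-0.53, -0.94 to -0.13), as did interneurons (-0.56). Of 2877 genes with at least 20 UMIs over both libraries in every cluster, 2.61% were lower in all 23, and of the receptor genes *HTR2A* and *HTR2C* reached that minimum. The part of free RNA in the fall was not tested.

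*HTR2C* was highest in GLUT+ neurons. Cluster 9 had 10.9 (10.5 to 11.4) and 10.5 (9.88 to 11.1) UMIs per 10000, and single nuclei held up to 18 and 19 UMIs. Interneuron clusters 19 (7.29 and 9.18) and 17 (7.01 and 6.93) and pallidal-like neurons (5.75 and 6.16) followed. Interneuron clusters 14 (5.55 and 6.01) and 21 (4.77 and 4.34) and GLUT+ cluster 10 (4.06 and 6.07) came next, and cluster 10 was below both in the shScr library and above both in the other, where it was not apart from cluster 14. Of cluster 21, 52.9% was among the nuclei with the highest doublet scores, the largest share of any cluster. That share was 0.995% in cluster 14 and 11.3% in cluster 10. The cholinergic cluster 23 was low, at 1.45 and 0.980. GLUT+ neurons exceeded MSNs by log2 ratios of 2.55 (2.48 to 2.62) and 1.81 (1.74 to 1.89) and red blood cells by 3.80 (3.16 to 4.54) and 2.61 (2.20 to 3.05). Thinned shares of cluster 9 were 59.2% (54.6 to 63.7) and 63.1% (56.7 to 69.2) (11 and 3 left out), far above the 1.22% (0.0309 to 6.61) and 11.8% (5.22 to 21.9) of red blood cells. Unthinned shares were 89.1% and 91.5% in cluster 9 and 5.18% and 9.12% in red blood cells.

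Within MSNs, *HTR2C* was higher in the minor clusters, as *HTR4* was. Cluster 3 had 3.48 and 3.71 and cluster 4 had 2.77 and 2.80, against 1.05 and 1.86 in cluster 1, 0.793 and 1.75 in cluster 2 and 1.16 and 2.03 in cluster 5. The minor clusters were close between libraries and the others were not. Library log2 ratios were 0.83 (0.71 to 0.94), 1.14 (1.00 to 1.27) and 0.80 (0.62 to 0.98) in clusters 1, 2 and 5, but 0.09 (-0.03 to 0.21) and 0.02 (-0.14 to 0.17) in clusters 3 and 4, and the excess of clusters 3 and 4 over 1 and 2 was 1.78 and 0.87. GLUT+ cluster 9 (-0.06), pallidal-like neurons (0.10) and pooled interneurons (0.04) were near 0, and GLUT+ cluster 10 was higher (0.58, 0.43 to 0.73). Intervals also lay above 0 in interneuron clusters 19 (0.33, 0.12 to 0.54) and 13 (0.235, 0.04 to 0.43) and in astrocyte cluster 7 (0.27, 0.07 to 0.48). Over the 23 clusters, 9 intervals lay above 0 and 14 included it. Red blood cells moved with MSN clusters 1, 2 and 5, from 19 to 49 UMIs (1.15, 0.36 to 2.00), as did microglia (1.11, 0.46 to 1.76). Thinned shares were 8.91% and 15.1% in cluster 1 and 7.01% and 14% in cluster 2, and those in the library labelled shFoxP2 fell inside the red blood cell interval. Unthinned they were 18.5% and 34.3% in cluster 1 and 14.3% and 32.7% in cluster 2. The part of free RNA in the higher *HTR2C* of these clusters was not tested.

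*HTR1B* was spread widely, with no neighbours in the order of clusters apart. Pallidal-like neurons were highest, at 1.93 (1.66 to 2.25) and 1.57 (1.28 to 1.89) UMIs per 10000, and MSNs had 1.08 and 1.13. In MSNs the direct-like nuclei were slightly higher (0.49, 0.38 to 0.60, and 0.29, 0.19 to 0.39), the opposite of *ADORA2A* and *HTR7*. The highest MSN cluster was direct-like in each library: cluster 4 in the shScr library (1.63) and cluster 2 in the other (1.30). GLUT+ neurons (0.693 and 0.469) and interneurons (0.349 and 0.397) were lower. Red blood cells had 1.43 (1.05 to 1.90) and 1.26 (0.925 to 1.66), and MSNs as a whole were not above them (-0.41, -0.83 to 0.04, and -0.15, -0.56 to 0.29). The intervals of pallidal-like neurons overlapped those of red blood cells in both libraries. Interneuron cluster 14 had 0.121 and 0.251. Thinned shares were 13.4% and 13.6% of pallidal-like nuclei (25 and 11 left out) and 8.54% (3.50 to 16.8) and 13.2% (6.24 to 23.6) of red blood cells, and unthinned 28.7% and 26% of pallidal-like nuclei and 12.5% and 10.7% of red blood cells.

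The split between pathways was then set beside all genes. Of the 7 genes, 6 reached 200 UMIs in MSNs (*ADORA1* did not), and 2 of the 6, *ADORA2A* and *HTR7*, were lower in direct-like MSNs past a log2 ratio of 1 in both libraries. Among 8503 and 8734 genes, 1.03% and 0.721% were lower past 1, and 1.75% and 1.41% were past 1 either way. *HTR7* had a ratio below that of all but 0.0588% and 0.137% of genes and *ADORA2A* below all but 0.118% and 0.183%. The median over the 6 receptors was -0.51 and -0.39, beside 0.03 and 0.03 over all genes.

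**Figure D4:**
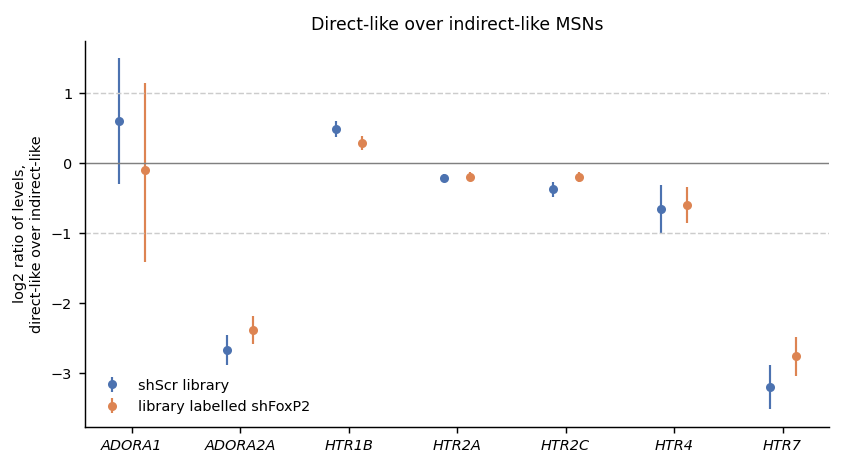
Log2 ratio of levels in direct-like (clusters 2 and 4) over indirect-like MSNs (clusters 1, 3 and 5) for the 7 genes; blue is the shScr library, orange the library labelled shFoxP2, bars are exact 95% binomial intervals and dashed lines mark 1 and -1. *ADORA2A* (-2.67 and -2.38) and *HTR7* (-3.19 and -2.76) lie below the lower line, *HTR1B* (0.49 and 0.29) lies above 0, and the wide *ADORA1* bars include 0.

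Between libraries, 0 of the 6 receptor genes that reached the minimum were past a log2 ratio of 1 in MSNs, beside 4.71% of 10125 genes. *ADORA1*, below that minimum, stood at -1.01 (-1.77 to -0.27) in MSNs, from 46 and 25 UMIs. In GLUT+ neurons, the neuron class where it was highest, its ratio was -0.39 (-1.01 to 0.21). Past 0.5, *HTR4* (0.83, 0.63 to 1.04) and *HTR2C* (0.69, 0.63 to 0.75) were higher in the library labelled shFoxP2, beside 9.11% of genes, and *HTR2A* was lower, beside 9.1%. *ADORA2A* (-0.12, -0.21 to -0.03) and *HTR7* (-0.17, -0.29 to -0.06) were slightly lower and *HTR1B* was at 0.07 (0.00 to 0.15). Of all genes, 96.4% had a lower ratio than *HTR4*, 94.8% a lower one than *HTR2C* and 6.47% a lower one than *HTR2A*. Birds, hairpin and preparation cannot be told apart as sources of these differences.

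The *HTR4* ratio depended on the mix of MSN clusters. Clusters 3 and 4 made up 17% and 25.4% of MSN nuclei. With the same mix in both libraries, the MSN log2 ratio of *HTR4* was 0.47 in place of 0.83, that of *HTR2C* 0.57 and that of *HTR2A* -0.53. Within clusters 3 and 4 *HTR4* stood at 0.39 (0.13 to 0.65) and 0.42 (0.03 to 0.82). In GLUT+ neurons it went the other way, from 0.555 to 0.321 (-0.79, -1.18 to -0.41), but the mix of GLUT+ clusters differed as well. Cluster 9 held 4.74% and 2.49% of all UMIs and cluster 10 held 3.36% and 3.86%. *HTR4* stood at -0.18 (-0.65 to 0.27) in cluster 9 and -1.41 (-2.15 to -0.69) in cluster 10, and *HTR1B* at -0.13 (-0.55 to 0.29) and -0.91 (-1.43 to -0.39), so both intervals included 0 in cluster 9 and lay below it in cluster 10. In GLUT+ neurons pooled, 2 of 4 receptor genes that reached the minimum, *HTR4* and *HTR1B* (-0.56), were lower past 0.5, beside 6.68% of 4417 genes. In interneurons 1 of 4, *HTR2A*, was, beside 6.45% of 6778 genes, and in pallidal-like neurons 0 of 3 were past 0.5 either way, beside 6.91% of 1361.

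**Figure D5:**
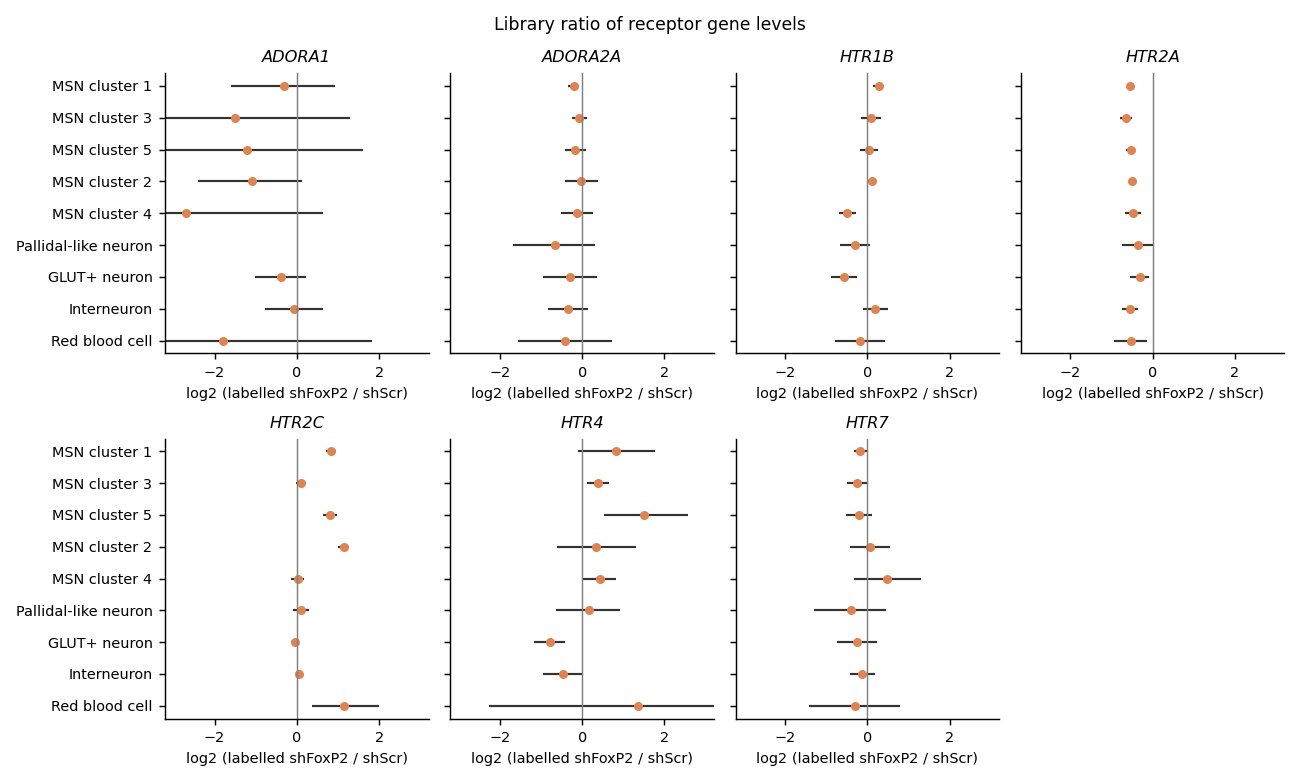
Log2 ratio of levels, library labelled shFoxP2 over shScr, for the 7 genes in the 5 MSN clusters, other neuron classes and red blood cells; points are ratios of summed UMIs and lines exact 95% binomial intervals, drawn to 3.2 at most on either side (*ADORA1* in pallidal-like neurons has 0 UMIs and no point). *HTR2A* is below 0 throughout, *HTR2C* above 0 in clusters 1, 2 and 5 and in red blood cells, and *HTR4* above 0 in clusters 3, 4 and 5 and below it in GLUT+ neurons.

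Genes around these receptors were counted from 4 lists that include the 7. Between libraries, 1 of 12 adenosine genes and 1 of 8 serotonin genes were higher past 1 in MSNs, beside 2.4% of all genes, and none was lower past 1. They were *ENTPD1* (1.14, 0.95 to 1.33), which breaks down extracellular ATP on the way to adenosine, and *HTR2B* (1.00, 0.59 to 1.43), another serotonin receptor gene. Of 30 effectors, *RGS20*, which limits G protein signals, was higher (1.21) and the phosphodiesterase gene *PDE1B* lower (-1.61), and of 12 striatal partners, the orphan receptor gene *GPR6* (-1.34) and the tachykinin gene *TAC1* (-1.18) were lower, beside 2.31% of all genes. The list medians were 0.01, -0.01, -0.02 and -0.23, beside 0.01 over all genes.

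Between pathways, *ADORA2A* was the only adenosine gene past 1, of 8 and 9. *ENTPD1* was higher in direct-like MSNs (0.63 and 0.73) and *ENTPD3*, of the same enzyme family, lower (-0.70 and -0.68). Of 7 serotonin genes, *HTR7* and *HTR1F*, a cAMP-lowering receptor gene (-1.72 and -2.31), were lower past 1 in direct-like MSNs, and *HTR6*, a cAMP-raising one, was at -0.92 in the shScr library. The serotonin median was -0.65 and -0.58. Of the effectors, *GRK3*, a receptor kinase gene, was higher in direct-like MSNs (1.48 and 1.78), while the adenylate cyclase gene *ADCY9* was past 1 in the shScr library only (1.33 and 0.81). The partners *FOXP2* (2.40 and 2.35), *PDYN* (1.84 and 1.54) and *CHRM4* (1.38 and 1.25) were higher and *DRD2* (-4.03 and -4.26) lower in direct-like MSNs. *DRD2* and *FOXP2* are genes by which the study describes the pathways, so their ratios are no separate result. Over all genes, 0.717% and 0.687% were higher past 1 in direct-like MSNs and 1.03% and 0.721% lower.

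Of 8 other receptor genes of both families with a column, 5 had the same highest cluster in both libraries. How often this holds over all genes was not counted, and the clusters were drawn on both libraries together. *HTR1F* was highest in GLUT+ cluster 10 (3.84 and 3.89 UMIs per 10000), *HTR6* in MSN cluster 1 (0.277 and 0.250), *ADORA2B* in endothelial cells (2.12 and 1.63, from 63 and 71 UMIs), *HTR1A* in cholinergic cluster 23 (0.619 and 0.595, from 12 and 17 UMIs) and *HTR1E* in *PVALB* cluster 14 (0.381 and 0.352). The highest cluster differed for *HTR1D* (14 and 17) and *HTR2B* (23, from 2 UMIs, and 13, from 18 UMIs), and *HTR5A* had 1 and 0 UMIs in all nuclei. The serotonin synthesis gene *TPH2* and the serotonin transporter gene *SLC6A4* had at most 9 UMIs in the MSNs of a library.

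The order of clusters was much alike in the libraries. Spearman's rho over the 23 levels was 0.981 for *HTR2A*, 0.933 for *HTR1B*, 0.922 for *HTR2C*, 0.915 for *HTR7*, 0.901 for *ADORA2A*, 0.849 for *HTR4* and 0.66 for the sparse *ADORA1*. This is a description, since the clusters were drawn on both libraries together. Of 22 neighbouring pairs in the order of the shScr library, 6 were apart for *HTR2C*, 4 for *HTR2A*, 2 for *ADORA2A*, 1 each for *HTR4* and *HTR7*, and 0 for *HTR1B* and *ADORA1*. For *ADORA2A*, cluster 3 was apart from cluster 1 in both libraries, and for *HTR7*, cluster 3 was apart from cluster 5.

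Genes with the most similar pattern were sought among 7147 genes by Pearson's r of log2(level + 0.1) over the 23 clusters of the shScr library. Those nearest *ADORA2A* were *SPAG6* (0.874), *NMU* (0.83) and *CDC14A* (0.825). Those nearest *HTR7* were *HTR6* (0.681), *PACSIN2* (0.643) and *CIT* (0.64), and for *HTR4* they were the muscarinic receptor gene *CHRM3* (0.844), *RGS20* (0.788) and *FAM163B* (0.742). *HTR2A* was followed by *RGS12* (0.968), *PCP4* (0.956) and *MCUB* (0.952), *HTR2C* by *SHANK2* (0.881), *RYR3* (0.858) and *ADCY2* (0.856), and *HTR1B* by *KCNH5* (0.919), *LRATD1* (0.918) and *NGEF* (0.906). For *ADORA1*, *ZZEF1* (0.82), *AKAIN1* (0.799) and *MYBBP1A* (0.763) fell to 0.518, 0.476 and 0.333 in the other library. The *HTR7* neighbours *HTR6*, *PACSIN2* and *CIT* were lower there too, at 0.589, 0.525 and 0.424. Genes named for the remaining receptors had values from 0.75 to 0.953 in that library. Between the receptors, r was 0.471 and 0.535 for *ADORA2A* with *HTR7*, 0.49 and 0.331 for *HTR2C* with *HTR4* and -0.667 and -0.458 for *HTR2A* with *HTR2C*. Clusters of a library share depth and free RNA, so these values carry no test.

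Receptors were also counted in the same nucleus, in 22 pairs of a receptor gene with another receptor gene, *DRD1*, *DRD2* or *FOXP2*. Within an MSN cluster and library, the thinned share of nuclei with the receptor was set beside that of nuclei lacking the second gene. Of 220 such comparisons, 219 had overlapping intervals. Intervals are wide where few nuclei hold a UMI, so overlap does not show that the genes are independent. *ADORA2A*, for example, was found in 13.3% of cluster 1 nuclei with a *DRD2* UMI and 12.2% of those without in the shScr library. The exception was *HTR2A* with *DRD1* in mixed cluster 5 of that library, at 53.7% (41.1 to 66) of 67 nuclei with and 36.5% (32.7 to 40.5) of 608 without, and 23.8% of cluster 5 was among the 8% of nuclei with the highest doublet scores. Of 88 comparisons in pallidal-like neurons and GLUT+ cluster 9, 2 were apart, both in the shScr library. Pallidal-like nuclei with a *DRD2* UMI had *HTR1B* in 38.7% (21.9 to 57.8) of 31, against 11% (7.81 to 14.9) of 328 without, and GLUT+ nuclei with a *DRD1* UMI had *HTR2C* in 25% (8.66 to 49.1) of 20, against 60.8% (56.1 to 65.3) of 446 without. In the other library these intervals overlapped.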

How the data were processed

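The authors aligned reads to the zebra finch genome bTaeGut1_v1.p with Cell Ranger, and UMIs over exons and introns were counted. The deposited tables give raw whole-number UMI counts for each nucleus and gene, together with its cluster and UMAP coordinates. The table of both libraries (27245 nuclei) was used, and its 14289 shScr nuclei held the same counts as a separate deposited table of that library. It names the libraries by codes, which were matched to the samples through that separate table.

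Levels were summed UMIs per 10000 with exact 95% Poisson intervals. Shares carried Clopper-Pearson intervals and log2 ratios exact binomial ones. For comparisons over all genes, a gene needed at least 200 UMIs over both sums, a sum of 0 was set to 3, and the fold counted was a log2 ratio of 1 unless 0.5 is named. Shares were also taken after thinning nuclei at random to 1000 UMIs. Doublets were not removed in the main values. Scrublet in scanpy 1.11.5 called 0 nuclei per library, so an alternative left out the 8% with the highest scores (1143 and 1036 nuclei). Python 3.11.15, numpy 2.4.6, scipy 1.17.1, pandas 2.3.3 and matplotlib 3.10.9 were used. The steps were tested on simulated data.

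The 7 genes and the 4 lists were chosen with earlier results of these data known. All 7 genes are named, and from each list those among the 3 largest log2 ratios in a direction with at least 200 UMIs. The 3 genes with the highest correlation are named for likeness. Other receptors named for their sites, the cluster pairs compared and the gene pairs counted in the same nucleus were chosen after values had been seen. Alternatives were a minimum of 1000 UMIs per nucleus, thinning to 500, 1000 or 2000 UMIs, equal weight per nucleus, centring on the median gene, other groupings of MSNs, at least 2 UMIs for a positive nucleus, folds of 0.5 and 1.5, and gene minimums of 50 and 1000 UMIs. A fixed mix of MSN clusters and the removal of shared barcodes were added after seeing the data.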

Additional observations from a re-analysis of the deposited data

Results flagged for a closer look

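For 3 receptor genes the library ratio (labelled shFoxP2 over shScr) had an interval above 0 in some clusters and below 0 in others. The difference between those clusters was not tested, as each condition has 1 library. *HTR1B* had a log2 ratio of 0.27 in MSN cluster 1, -0.49 in MSN cluster 4 and -0.91 in GLUT+ cluster 10. *HTR4* had 0.39 in MSN cluster 3, 0.42 in cluster 4 and 1.5 in cluster 5, the last from 12 and 39 UMIs. In GLUT+ cluster 10 it was -1.41, from 53 and 25 UMIs. *ADORA2A* had 1.08 in oligodendrocytes, from 18 and 36 UMIs, -0.21 in MSN cluster 1 and -0.98 in endothelial cells, from 31 and 23 UMIs.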

How the results depend on the processing

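No paired analysis was possible because each condition has 1 library. No receptor ratio whose main interval excluded 0 changed sign under an alternative. Ratios whose interval included 0 were not checked for sign. Of 77 direct-like over indirect-like values under alternatives, 74 kept within the interval of the main value, as did 53 of 56 library ratios in MSNs and 52 of 56 levels. Some settings could hardly move a value, as the median used for centring was 0.006 and 47 barcodes were shared. These counts therefore say little about stability. The fixed mix of MSN clusters moved 3 library ratios and kept 4. The exceptions under thinning to 1000 UMIs were the direct-like over indirect-like log2 ratios of *ADORA2A* (-2.65) and *HTR2A* (-0.32) in the library labelled shFoxP2 and of *HTR1B* in the shScr library (0.36). The same setting moved the GLUT+ level of *ADORA1* (0.291 UMIs per 10000) and of *HTR2C* (8.33) in the library labelled shFoxP2 and the pallidal-like level of *HTR1B* in the shScr library (1.64). Without the highest Scrublet scores, *HTR2C* in GLUT+ neurons of the shScr library was 8.64. With a fixed mix of MSN clusters, the library ratios were -0.53 for *HTR2A*, 0.57 for *HTR2C* and 0.47 for *HTR4*. The cause was not tested. Over the 4 lists, 6 genes were past a log2 ratio of 1 between libraries, 13 past 0.5, 1 past 1.5 and 2 with at least 1000 UMIs. Between pathways 9 and 8 genes were past 1 and 18 and 18 past 0.5. Shares of nuclei rose with depth, and 40 of 42 left their interval when thinned to another depth or with at least 2 UMIs required. Depth limits *ADORA1* most, with 154 and 117 UMIs in all nuclei.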
